A study of Mus musculus with 10 samples.

Results

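Genes of mouse choline transport are described here, namely Slc44a1, Slc44a2, Slc44a3, Slc44a4 and Slc44a5, which make up the choline transporter-like family, and Slc5a7, the high-affinity choline transporter. They are 6 of 22180 genes measured on Affymetrix whole-transcript arrays of jejunum. The members were listed by name, and each was taken from the 1 probe set that the platform annotation gives to it alone. The knockout group was 5 arrays, numbered 1 to 5, of mice of genotype Pcyt1aLoxP/LoxP;VilCreERT2, in which tamoxifen activates a Cre recombinase driven by the promoter of villin, a gene of the gut epithelium. The control group was 5 arrays, numbered 6 to 10, of Pcyt1aLoxP/LoxP mice that carry the LoxP sites but no Cre. All mice were female and 10 to 12 weeks old, and both groups received tamoxifen for 5 days, a high fat diet for 4 days and an overnight fast before a 3 cm piece was taken from the middle of the small intestine. In a piece of tissue, cells without villin, which keep Pcyt1a, can contribute RNA to both groups. Their share was not tested. The mean log2 intensity of smooth muscle markers ran from 6.81 to 8.41 on knockout arrays and from 6.41 to 10.43 on control arrays. Some statements in the labels disagree with others: the source label of the controls also speaks of an intestine without phosphatidylcholine synthesis, and the series text speaks of re-feeding while every sample label gives the fasted state.

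Choline is a charged molecule that crosses membranes on carriers. Inside the cell it is phosphorylated by choline kinase, activated to CDP-choline by the enzyme that Pcyt1a encodes, and built into phosphatidylcholine, the main phospholipid of membranes and of the surface of chylomicrons. It can also be oxidised to betaine, or, in cholinergic neurons, acetylated to acetylcholine. Slc44a1 encodes a choline carrier of intermediate affinity that is found in many tissues at the plasma membrane and on mitochondria, whereas Slc5a7 is sodium-coupled and serves the nerve terminals that make acetylcholine. The comparison asks whether transcripts of the carriers that bring in choline differ when the epithelium has lost the Pcyt1a step of the pathway.

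The 250 bases before the start site are shown for Slc44a1 and Slc44a4, the pair of members with the lowest permutation p for running together over the arrays, and for Slc44a3, the member with the lowest p-value between the groups. RefSeq lists a pair of start sites a few bases apart for Slc44a1, and the window of the first is shown. The sequences are those of RefSeq on build GRCm38.p6 and run 5′ to 3′ on the strand of the gene, at chr4:53440163-53440412 (plus strand), chr17:34914216-34914465 (plus strand) and chr3:121532345-121532594 (minus strand). Capitals mark matches to GGGCGG, the core of the GC box bound by Sp1-type factors, on either strand.
Slc44a1: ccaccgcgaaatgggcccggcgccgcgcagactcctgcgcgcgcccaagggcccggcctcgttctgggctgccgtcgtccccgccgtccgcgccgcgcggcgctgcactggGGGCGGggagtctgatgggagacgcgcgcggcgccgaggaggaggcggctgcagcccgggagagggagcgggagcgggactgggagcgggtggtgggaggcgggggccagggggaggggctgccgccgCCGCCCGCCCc
Slc44a4: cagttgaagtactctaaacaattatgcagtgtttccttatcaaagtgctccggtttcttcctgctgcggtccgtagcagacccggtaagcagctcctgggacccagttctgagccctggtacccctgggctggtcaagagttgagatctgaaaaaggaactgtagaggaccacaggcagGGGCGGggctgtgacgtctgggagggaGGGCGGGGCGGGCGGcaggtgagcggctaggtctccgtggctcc
Slc44a3: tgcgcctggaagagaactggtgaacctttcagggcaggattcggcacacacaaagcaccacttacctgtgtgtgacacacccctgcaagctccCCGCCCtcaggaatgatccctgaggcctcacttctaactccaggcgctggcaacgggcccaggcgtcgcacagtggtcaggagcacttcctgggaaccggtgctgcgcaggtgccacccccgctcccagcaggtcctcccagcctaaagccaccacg
The GC box core stood 3 times in the Slc44a1 window, 4 times in that of Slc44a4 and 1 time in that of Slc44a3, with matches that overlap each other in the first 2. It was found in 32.7% of all 32851 windows of this length. G and C made up 81.2% of the Slc44a1 window, 59.2% of that of Slc44a4 and 62.8% of that of Slc44a3, against a median of 52.4% over all windows. The sterol regulatory element TCACNCCAC (1.05% of windows), the E-box CACGTG (6.02%) and CCAAT (33.8%), searched on both strands, had no match in these 3 windows, and the TATA box TATAAA (12.4%) had none either. A match is a description of letters and not a site of binding.

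The genotype was visible in the target gene. Pcyt1a had log2 intensities of 7.14, 7.80, 7.30, 7.54 and 7.53 on the knockout arrays, against 9.55, 9.25, 9.50, 9.18 and 9.48 on the control arrays. Every knockout array was below every control array, and the log2 fold change (knockout minus control) was -1.93 with an SE of 0.13 (limma adjusted p = 9.58e-05). All 12 enterocyte markers averaged a log2 intensity no lower than 5, and the mean of the list ran from 12.78 to 13.05 on knockout arrays and from 12.89 to 13.07 on control arrays. Array medians over all genes lay between 5.77 and 5.89. Some marker lists differed between the groups in the mean log2 intensity of their members. Tuft cell markers (8 of 8 measured, 0 at 0) averaged 5.99 to 6.16 on knockout arrays against 6.36 to 6.60 on control arrays. Enteroendocrine markers (8 of 8 measured, 0 at 0) averaged 7.31 to 7.72 against 7.92 to 8.08, with 7 log2 fold changes negative and 1 positive. Neither list overlapped between the groups. The lowest intensity of the whole table was 1.88, so a count of 0 at 0 was fixed and does not show detection. A mean log2 intensity of at least 5 was reached by 7 of 8 enteroendocrine, 7 of 9 enteric neuron and 6 of 7 T cell markers measured. Cell cycle genes (7 of 8 measured, 0 at 0) averaged 8.07 to 9.02 on knockout arrays against 7.19 to 8.08 on control arrays, with positive log2 fold changes for all 7. The part of these lists in the members' values was not tested. Endothelial markers averaged 6.54 to 7.38 on knockout arrays against 5.56 to 6.62 on control arrays, with positive log2 fold changes for all 7. All 8 macrophage markers and all 7 measured Paneth markers were positive as well. All 8 smooth muscle markers and all 9 measured enteric neuron markers were negative. Of the goblet cell markers 7 were negative and 1 positive, and of the fibroblast markers 6 were positive and 1 negative. The groups overlapped in the score of each of these lists. Lists also varied from array to array, and the values of several stand beside the members they touch. The labels name no batch and do not say that each sample was a mouse of its own, so the spread behind the p-values is that of these samples and may be technical.

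No choline transporter passed the test. Of the 6 members, 0 reached limma's Benjamini-Hochberg adjusted p of 0.05, with adjusted p from 0.286 to 0.940. Over all genes 0.0271% passed, 0.00451% higher and 0.0225% lower in knockouts. At an unadjusted p of 0.05, 1 of the 6 was higher and 0 were lower in knockouts by limma, against 13.9% of all genes in either direction. The knockout and control arrays overlapped for every member, whereas they were apart for 2.6% of all genes. The log2 fold changes ran from -0.25 to 0.25 with a median of 0.03, and 3 of 6 were positive. Over all genes the median was -0.01. The median size of the difference, without its sign, was 0.10 for the members and 0.12 for all genes.

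**Figure D1:**
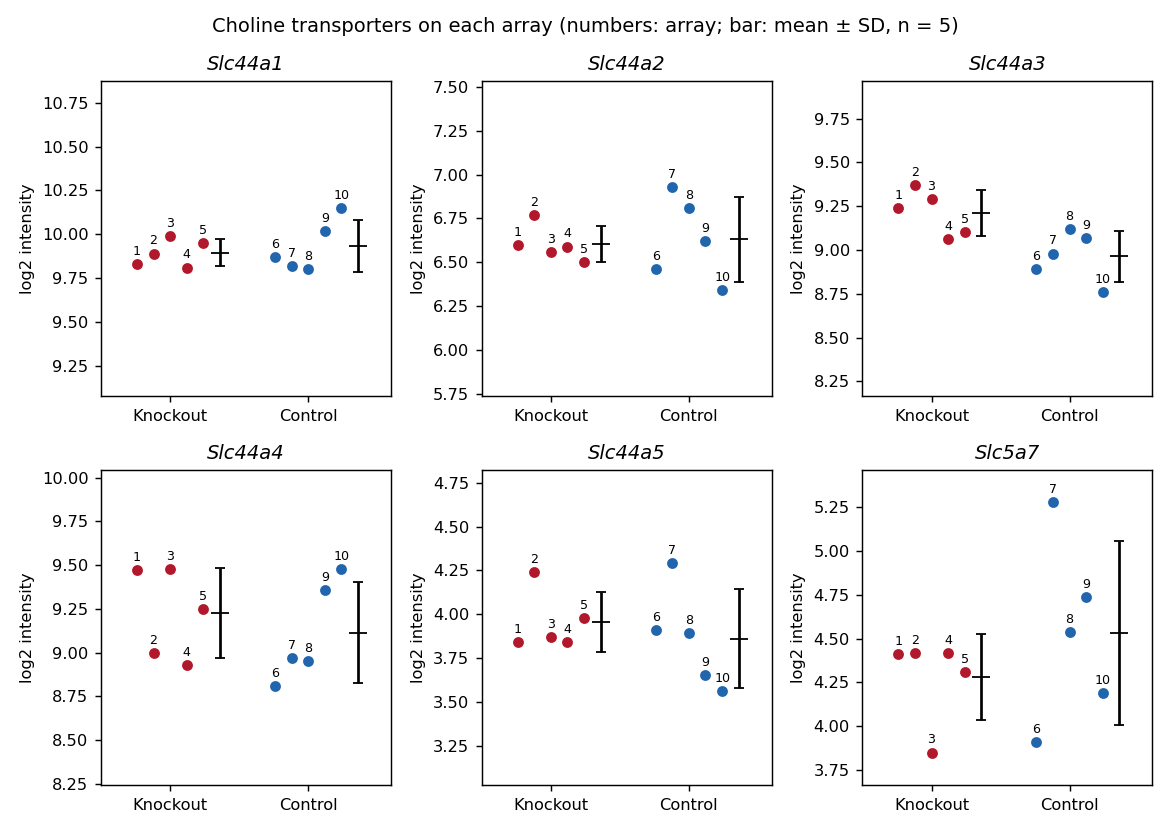
Log2 intensity of each choline transporter on the 5 knockout arrays (red, left) and 5 control arrays (blue, right), with array numbers, and the mean ± SD of each group as a black bar. All panels have the same height in log2 units, centred on their own gene, and the groups overlap in all 6 panels. Control array 7 stands highest for Slc5a7 at 5.28.

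Slc44a1, the best studied choline carrier of the family, had log2 intensities of 9.83, 9.89, 9.99, 9.81 and 9.95 on the knockout arrays, against 9.87, 9.82, 9.80, 10.02 and 10.15 on the control arrays. The knockout values all lay within the range of the controls, in which arrays 9 and 10 were highest. The means were 9.89 ± 0.08 in knockouts against 9.93 ± 0.15 in controls (SD, 5 arrays each), and the log2 fold change was -0.04 (SE 0.09, limma adjusted p = 0.889). The 95% interval ran from -0.23 to 0.16, which on the linear scale is a knockout level between 0.850 and 1.12 of the control level. It was the narrowest interval of the 6 members. Without control 10 the value was 0.02, with the sign turned.

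Slc44a2 encodes a relative of Slc44a1 that is found at the plasma membrane and on mitochondria and, in humans, carries the neutrophil antigen HNA-3a. It had log2 intensities of 6.60, 6.77, 6.56, 6.59 and 6.50 on the knockout arrays, against 6.46, 6.93, 6.81, 6.62 and 6.34 on the control arrays. The controls spread on both sides of the knockouts, with control 7 highest and control 10 lowest. The means were 6.60 ± 0.10 in knockouts against 6.63 ± 0.24 in controls (SD, 5 arrays each), and the log2 fold change was -0.03 (SE 0.12, 95% interval -0.28 to 0.23, limma adjusted p = 0.940). The sign of so small a difference turned without control 7 (0.05) or control 8 (0.02). RefSeq lists 2 start sites for Slc44a2, and the array has 1 probe set for the gene, so transcripts from the start sites were not separated.

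Slc44a3 is a less studied member of the family. Its log2 intensities were 9.24, 9.37, 9.29, 9.06 and 9.10 on the knockout arrays, against 8.89, 8.98, 9.12, 9.07 and 8.76 on the control arrays. Knockouts 1, 2 and 3 were above all controls, while knockouts 4 and 5 were below control 8. The means were 9.21 ± 0.13 in knockouts against 8.96 ± 0.14 in controls (SD, 5 arrays each), and the log2 fold change was 0.25 (SE 0.10, 95% interval 0.04 to 0.46). This was the only member whose interval did not include 0. The limma p was 0.0254 before and 0.286 after adjustment over all genes, so the difference was not called. A two-sided exact permutation test over every split of the arrays into 5 and 5 gave p = 0.0397 (adjusted 0.362), where 12.5% of all genes had an exact permutation p under 0.05, in a design whose smallest possible p is 0.00794. With any 1 array left out the log2 fold change stayed between 0.20 (without control 10) and 0.29 (without control 8), with limma adjusted p between 0.248 and 0.494. The unadjusted limma p was above 0.05 in 4 of these 10 fits, namely without knockout 2 (0.0617), knockout 3 (0.0553), control 6 (0.0523) or control 10 (0.0681), and the 95% interval then included 0.

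Slc44a4 is expressed in epithelia, and the human protein takes up thiamine pyrophosphate, the form of vitamin B1 made by gut bacteria, in the colon. Its log2 intensities were 9.47, 9.00, 9.48, 8.93 and 9.25 on the knockout arrays, against 8.81, 8.97, 8.95, 9.36 and 9.48 on the control arrays. Both groups held arrays near 9.0 and arrays near 9.4, and the lowest and highest values of the groups were close to each other. The means were 9.23 ± 0.26 in knockouts against 9.11 ± 0.29 in controls (SD, 5 arrays each), and the log2 fold change was 0.11 (SE 0.16, 95% interval -0.23 to 0.45, limma adjusted p = 0.794). The value was 0.20 without control 10 and 0.04 without control 6.

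Slc44a5 is the last of the family. Its log2 intensities were 3.84, 4.24, 3.87, 3.84 and 3.98 on the knockout arrays, against 3.91, 4.29, 3.89, 3.65 and 3.56 on the control arrays. Knockout 2 and control 7 stood above the rest of their groups. The means were 3.95 ± 0.17 in knockouts against 3.86 ± 0.28 in controls (SD, 5 arrays each), and the log2 fold change was 0.09 (SE 0.14, 95% interval -0.21 to 0.40, limma adjusted p = 0.807). The value was 0.20 without control 7 and 0.02 without control 10 or knockout 2. Slc44a5 and Slc5a7 had a mean log2 intensity under 5, as did 7246 of all genes. No background values were used here, so it was not tested whether these 2 probe sets read transcript or background.

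Slc5a7, the carrier of cholinergic nerve endings, had log2 intensities of 4.41, 4.42, 3.85, 4.42 and 4.31 on the knockout arrays, against 3.91, 5.28, 4.54, 4.74 and 4.19 on the control arrays. Of the knockouts, array 3 was far below the other 4, and the control arrays ranged more widely, from array 6 to array 7. The means were 4.28 ± 0.25 in knockouts against 4.53 ± 0.53 in controls (SD, 5 arrays each), and the log2 fold change was -0.25 (SE 0.22, limma adjusted p = 0.660). Its 95% interval was the widest of the 6 members, from -0.74 to 0.24, or a knockout level between 0.600 and 1.18 of the control level. The log2 fold change was -0.06 without control 7, -0.41 without control 6 and -0.14 without knockout 3.

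**Figure D2:**
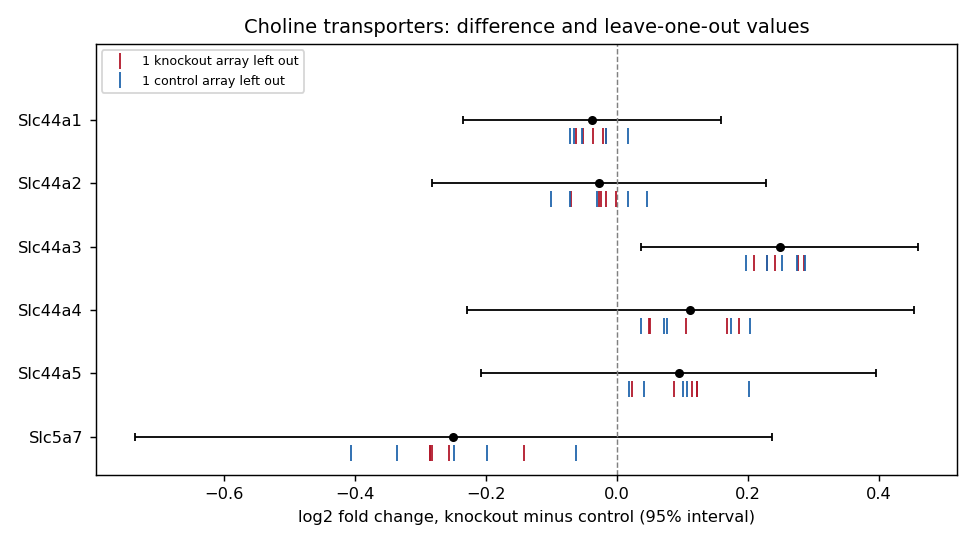
Log2 fold change (knockout minus control) of the 6 choline transporters with 95% limma intervals (black, n = 5 each), and below each the values with 1 knockout array (red ticks) or 1 control array (blue ticks) left out. The interval of Slc44a3 lies above 0, from 0.04 to 0.46; the others include 0, and Slc5a7 has the widest.

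Slc5a7 was highest on the 2 control arrays that were highest in markers of the muscle layer and of enteric neurons. Knockout 1, the highest knockout in both lists, was at 4.41 for Slc5a7, beside 4.42 on knockouts 2 and 4. The mean log2 intensity of smooth muscle markers (8 of 8 measured, 0 at 0) was 8.41 on knockout 1 and between 6.81 and 7.11 on the other knockouts, against 10.43 on control 7, 9.19 on control 9 and between 6.41 and 6.64 on the other controls. That of enteric neuron markers (9 of 10 measured, 0 at 0), which do not include Slc5a7, ran from 5.18 to 5.49 in knockouts and from 5.26 to 6.16 in controls, and was highest on controls 7 and 9. After the group means were removed, Slc5a7 correlated over the 10 arrays with the neuron score (Pearson r = 0.803, exact permutation p = 0.0314, adjusted 0.248; Spearman rho = 0.754, exact permutation p = 0.0494, adjusted 0.369) and with the smooth muscle score (Pearson r = 0.800, exact permutation p = 0.0312, adjusted 0.248; Spearman rho = 0.766, exact permutation p = 0.0565, adjusted 0.369). Without the 2 arrays farthest from the median of the score, r was 0.752 for neurons and 0.544 for smooth muscle. Slc5a7 also correlated with the fibroblast score (r = 0.696, exact permutation p = 0.0456, adjusted 0.254). There rho was 0.638 (exact permutation p = 0.0822, adjusted 0.373), and r was 0.386 without the 2 farthest arrays. With the smooth muscle score as a covariate the log2 fold change of Slc5a7 was -0.11 (SE 0.15), and without knockout 1, control 7 and control 9 it was 0.04 (SE 0.19). In whole tissue, fewer cells of a type and less RNA per cell cannot be told apart.

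In all, 99 relations were computed (15 between members and 84 with 14 marker lists), permuting arrays within groups. Before adjustment 18 values of r had p under 0.05, and 0 were called once adjusted over the 99, where the lowest value was 0.240. For each of the other members, the list with the lowest p of r is given. The part of tissue makeup in the members' values was not tested beyond the covariate fits.

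Slc44a4 correlated with the goblet cell score (r = 0.833, exact permutation p = 0.00882, adjusted 0.240; rho = 0.758, exact permutation p = 0.0235, adjusted 0.332; r = 0.792 without the 2 farthest arrays). Goblet cells are the mucus-secreting cells of the epithelium, and their markers (8 of 8 measured, 0 at 0) averaged 10.48 to 10.91 in knockouts and 10.83 to 11.16 in controls. Slc44a4 also correlated with the Paneth score (r = 0.794, exact permutation p = 0.0158, adjusted 0.240; rho = 0.855, exact permutation p = 0.00514, adjusted 0.233; r = 0.768 without the 2 farthest arrays), whose 7 measured markers of 8, 0 of them at 0, averaged 10.10 to 12.79 in knockouts and 10.10 to 12.41 in controls. With the Paneth score as a covariate, its log2 fold change between the groups was 0.04. With the T cell score the relation was inverse (r = -0.798, exact permutation p = 0.0115, adjusted 0.240; rho = -0.891, exact permutation p = 0.00257, adjusted 0.233; r = -0.819 without the 2 farthest arrays), and its 7 measured markers of 8, 0 of them at 0, averaged 6.49 to 8.21 in knockouts and 6.95 to 8.01 in controls. It was also inverse with the enterocyte score (r = -0.732, exact permutation p = 0.0250, adjusted 0.248; rho = -0.673, exact permutation p = 0.0450, adjusted 0.369; r = -0.675 without the 2 farthest arrays). Slc44a1 followed the goblet score as well (r = 0.704, exact permutation p = 0.0169, adjusted 0.240; rho = 0.782, exact permutation p = 0.0118, adjusted 0.233; r = 0.696 without the 2 farthest arrays).

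Slc44a2 correlated with the macrophage score (r = 0.823, exact permutation p = 0.00340, adjusted 0.240; rho = 0.806, exact permutation p = 0.0141, adjusted 0.233; r = 0.717 without the 2 farthest arrays). Slc44a2 also correlated with the fibroblast score (r = 0.674, exact permutation p = 0.0362, adjusted 0.248). There rho was 0.83 (exact permutation p = 0.00944, adjusted 0.233), and r was 0.718 without knockout 1 and control 7. The fibroblast markers (7 of 7 measured) averaged 6.86 to 8.00 in knockouts and 6.38 to 7.76 in controls. The macrophage markers (8 of 8 measured, 0 at 0) averaged 7.00 to 7.64 in knockouts and 6.64 to 7.20 in controls. Slc44a5 correlated with the same score (r = 0.774, exact permutation p = 0.0129, adjusted 0.240; rho = 0.760, exact permutation p = 0.0274, adjusted 0.339), but r was 0.495 without knockout 2 and control 7, so that relation rests on those arrays. Slc44a3 correlated with the B and plasma cell score (r = 0.762, exact permutation p = 0.00757, adjusted 0.240; rho = 0.794, exact permutation p = 0.00986, adjusted 0.233; r = 0.636 without controls 8 and 10). Its 6 measured markers of 8, 0 of them at 0, averaged 7.21 to 7.56 in knockouts and 6.71 to 8.57 in controls.

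**Figure D3:**
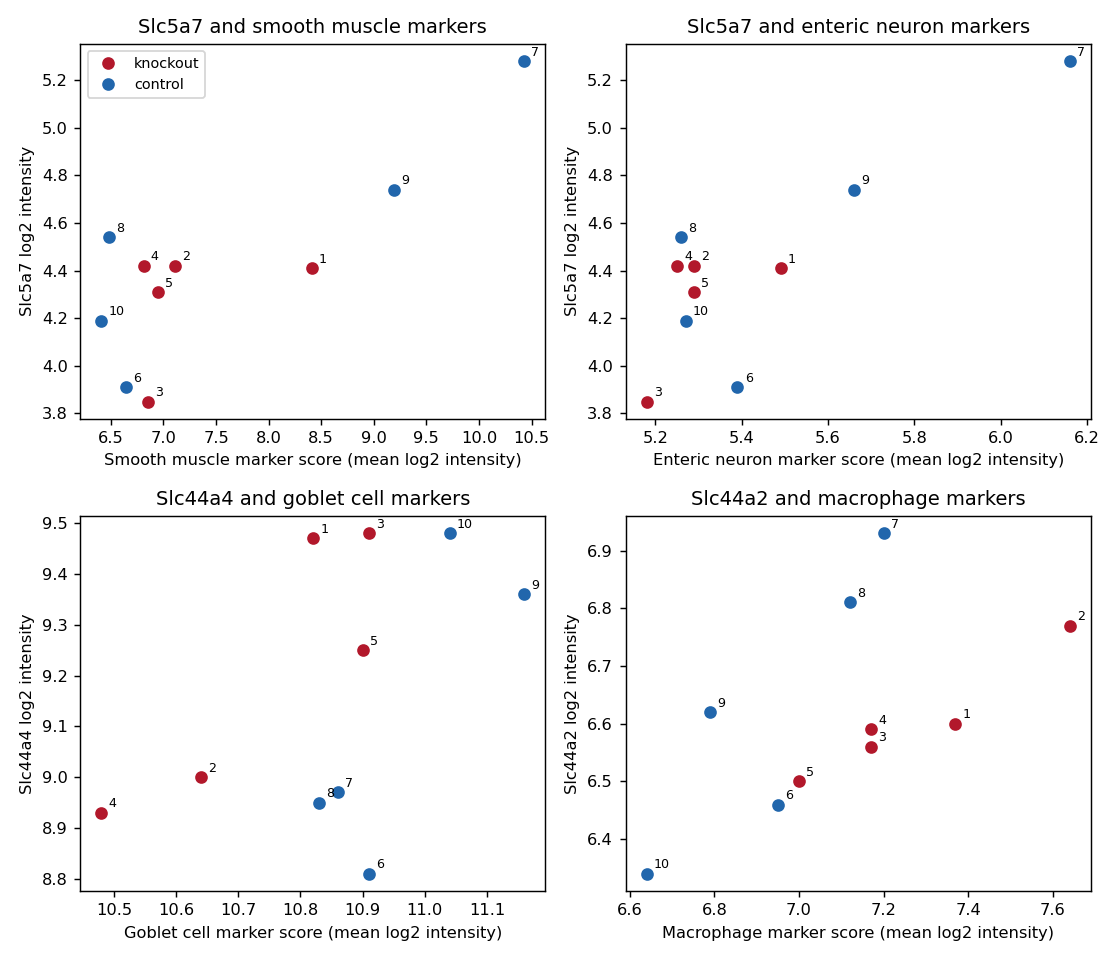
Log2 intensity of a choline transporter (vertical axes) against the mean log2 intensity of a marker list (horizontal axes) on the 5 knockout arrays (red) and 5 control arrays (blue), with array numbers. Controls 7 and 9 are highest in smooth muscle and neuron markers and in Slc5a7. Knockout 1 is the highest knockout in both lists, with Slc5a7 at 4.41. The lower panels show Slc44a4 with goblet cell markers and Slc44a2 with macrophage markers.

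Between members, none of the 15 pairs passed after adjustment. The pairs with the lowest exact permutation p of r were Slc44a1 with Slc44a4 (r = 0.747, exact permutation p = 0.0257, adjusted 0.248; rho = 0.673, exact permutation p = 0.0599, adjusted 0.369; r = 0.529 without knockout 3 and control 10) and Slc44a2 with Slc44a5 (r = 0.764, exact permutation p = 0.0322, adjusted 0.248; rho = 0.505, exact permutation p = 0.252, adjusted 0.674; r = 0.388 without controls 7 and 10). The second pair rests on those controls.

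The genes whose patterns were most like each member over the 10 arrays, by Pearson r of deviations from the group means, are given as a description with no test, since the highest values among all other genes were taken. Slc44a4 was most like the glycerophosphodiester phosphodiesterase gene Gdpd1 (r = 0.982), the lysophospholipid acyltransferase Lpcat4 (0.979) and the tetraspanin Tspan8 (0.978). Slc44a2 was most like the myosin motor Myo5a (0.987), the survival factor Bcl2 (0.966) and the complement component C1qb (0.960). C1qb is a member of the macrophage list used above, so its likeness is not separate from the relation of Slc44a2 with that score. Slc5a7 was most like Cd248 (0.956), a surface protein of fibroblasts and pericytes, the scavenger receptor Colec12 (0.955) and the extracellular matrix gene Frem1 (0.951). Slc44a1 was most like Oxct2b (0.972), 1700034I23Rik (0.968) and Mir300 (0.962), each with a mean log2 intensity under 5. Slc44a3 was most like Krt83 (0.911), Otoa (0.908) and Mrap (0.903), and Slc44a5 was most like Gm2423 (0.959), Gpatch3 (0.945) and Sorcs1 (0.945). Frem1, Otoa, Mrap, Gm2423 and Sorcs1 also had mean log2 intensities under 5. With the mean of all probe sets of a gene, the value for Oxct2b was -0.04 and that for Bcl2 was 0.817. With a further quantile normalisation, that for Gpatch3 was 0.82. All genes of an array were read in the same piece of tissue.

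The genes that handle choline beyond these carriers were taken from a list of 43, of which 37 were measured on probe sets of their own. Pcyt1a fell and 0 of the other 36 were called by limma. The median log2 fold change of those 36 was -0.11, against -0.01 over all genes, and 29 of them, or 80.6%, were negative, against 53.2% of all genes. At an unadjusted limma p of 0.05, 1 of the 36 was higher and 3 were lower, where 8.29% of all genes were higher and 5.56% lower. These genes were read on the same arrays, so their signs are not independent of each other. The median of all 37 was -0.118. With 1 array left out it ran from -0.1375 (without control 10) to -0.0655 (without knockout 1).

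Organic cation carriers, which move choline at low affinity, had 5 measured members of 7, with log2 fold changes from -0.23 to -0.02. Flvcr1, known in mammals as a carrier of choline and haem, had log2 intensities of 10.06, 10.42, 9.96, 10.11 and 10.18 on the knockout arrays, against 9.72, 9.51, 10.10, 10.19 and 10.32 on the control arrays. Its groups overlapped, and the difference was 0.18 on the log2 scale (SE 0.15, limma adjusted p = 0.651). The carriers of lysophospholipid or related lipids, Mfsd2a, Spns1 and Spns2, ranged from -0.14 to 0.34, and none was called.

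Choline kinase Chka, which traps choline in the cell, had log2 intensities of 9.50, 9.58, 9.18, 9.29 and 9.63 on the knockout arrays, against 9.37, 8.98, 9.24, 9.08 and 9.32 on the control arrays. Knockouts 1, 2 and 5 were above all controls, and knockouts 3 and 4 were among them. The log2 fold change was 0.24 (SE 0.11, limma adjusted p = 0.381). With the mean of all probe sets of a gene it was 0.19 (SE 0.11, limma adjusted p = 0.461). The second kinase, Chkb, shares its probe set with another gene symbol and was not analysed here.

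All 6 genes of choline oxidation and betaine use had negative log2 fold changes (median -0.11), as did the 3 carriers of betaine or proline (median -0.45) and the 4 genes of acetylcholine synthesis, storage and breakdown (median -0.16). None of these 13 was called. Bhmt, Bhmt2 and Dmgdh of the oxidation genes, Slc6a12 of the carriers and Slc18a3 of the acetylcholine genes had mean log2 intensities under 5. Whether their probe sets read transcript or background was not tested. The acetylcholine genes Chat, the enzyme that makes acetylcholine, and Slc18a3, its vesicle carrier, are among the enteric neuron markers and work in the same nerve endings as Slc5a7. Their log2 fold changes were -0.19 (SE 0.09) and -0.12 (SE 0.11), beside -0.25 (SE 0.22) for Slc5a7. All 9 measured enteric neuron markers, Chat and Slc18a3 among them, had negative log2 fold changes, with a list mean of 5.30 in knockouts against 5.55 in controls. Chat is also expressed by tuft cells of the gut. All 8 tuft cell markers had negative log2 fold changes, with a list mean of 6.09 in knockouts against 6.49 in controls. The part of neurons and of tuft cells in the Chat value was not tested. Of the 9 measured enzymes that release choline or its esters from lipid, 7 were negative (median -0.06).

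The 4 genes past an unadjusted limma p of 0.05, chosen after their values were seen, were Pcyt1b, Chdh, Bhmt and Enpp6. Pcyt1b, the second gene for the step of Pcyt1a, was at -0.35 (SE 0.12, limma adjusted p = 0.240). Choline dehydrogenase Chdh, which starts choline oxidation, was at -0.22 (SE 0.09, limma adjusted p = 0.339), and Bhmt, which uses betaine to remethylate homocysteine, was at -0.36 (SE 0.16, limma adjusted p = 0.325). Enpp6, a choline-specific glycerophosphodiesterase, was at 0.40 (SE 0.14, limma adjusted p = 0.230). Pcyt1b, Bhmt and Enpp6 had mean log2 intensities under 5.

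**Figure D4:**
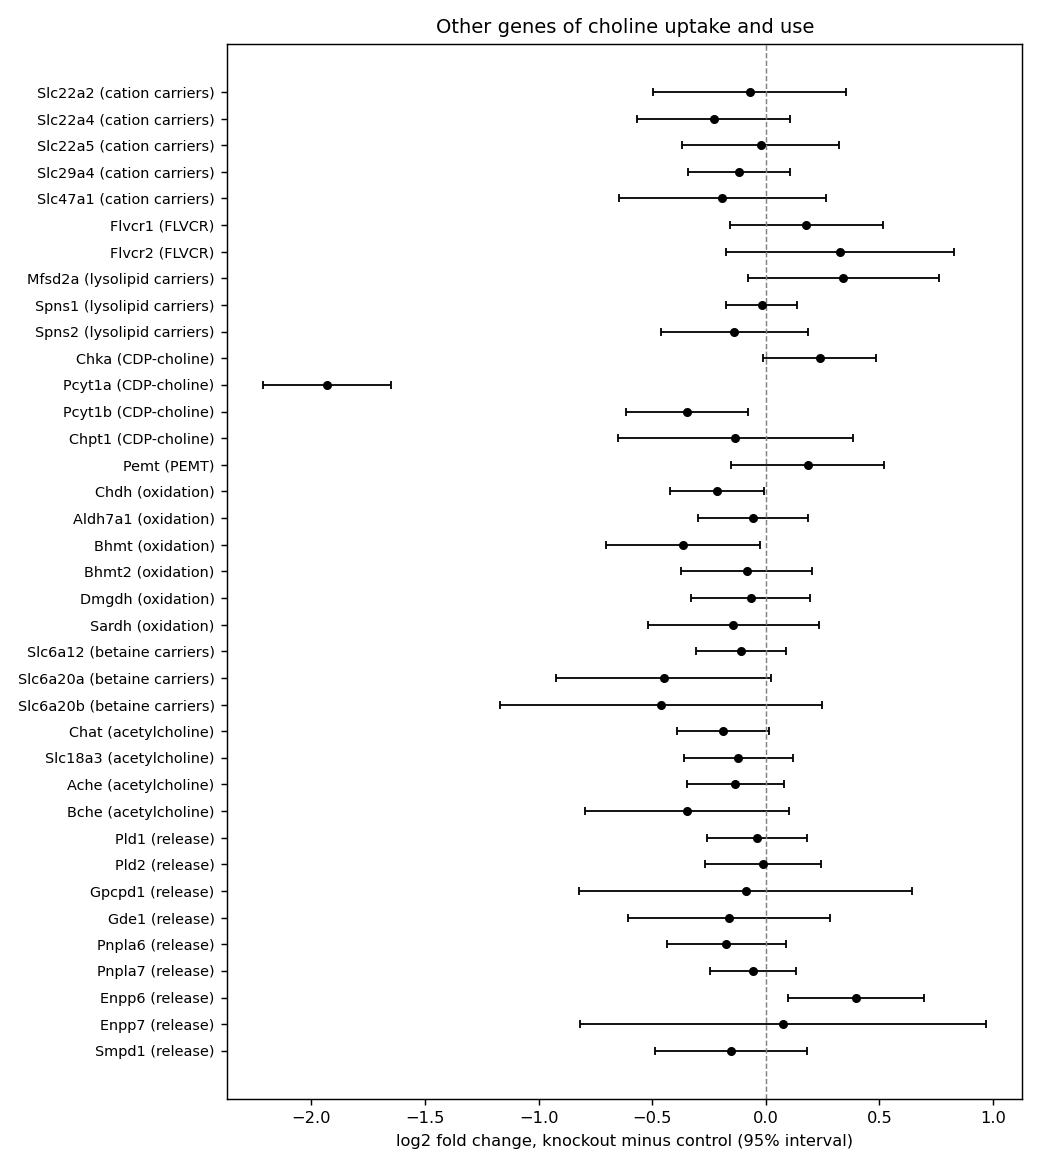
Log2 fold change (knockout minus control) with 95% limma intervals (n = 5 each) of the 37 other genes of choline uptake and use, with their role in brackets. Pcyt1a stands apart at -1.93, and 29 of the other 36 points lie left of 0.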

How the data were processed

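RNA of 10 jejunum samples, 5 knockout and 5 control by their titles, was hybridised to 1 array each. Linear intensities per probe set were deposited, and the submitters' processing notes name RMA and Affymetrix Expression Console 1.4.1.46 as the authors' tools. The build and annotation behind the probe sets are not given in the sources used here. The intensities ran from 1.88 to 15500.2, and log2 was taken first. Of 34472 probe sets, 23521 had 1 gene symbol, 1814 several and 9137 none. Only the first kind was used, with the probe set of the highest mean kept for 1082 genes that had several, leaving 22180 genes and no intensity filter. Each member had 1 probe set, and all 6 matched RefSeq (GRCm38.p6) by gene ID.

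Knockout and control arrays entered a two-sided limma fit (lmFit, eBayes; limma 3.58.1, R 4.3.3), with Benjamini-Hochberg adjustment over all 22180 genes and a threshold of 0.05. The fit was tested on simulated data with independent noise and added changes larger than any seen in the members. That test does not cover differences as small as theirs. A marker score is the mean log2 intensity of a list on an array. Correlations used deviations from group means, with exact permutation of arrays within groups (14400 arrangements) and Benjamini-Hochberg adjustment over 99 relations. The members, lists and naming rule were chosen with earlier results of these data known. The naming rule took all members, Pcyt1a, choline kinases, Flvcr1, any list gene that was called or whose groups were apart, and the 3 genes most like each member. Arrays give no read depth, and precision is set by their number.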

Additional observations from a re-analysis of the deposited data

Results flagged for a closer look

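Slc5a7 on knockout 3 was at a log2 intensity of 3.85, far below the other 4 knockouts, which lay between 4.31 and 4.42. The smooth muscle score of knockout 1 was 8.41, far above those of the other 4 knockouts, which lay between 6.81 and 7.11. The cell cycle score of control 6 was 7.19, far below those of the other 4 controls, which lay between 7.93 and 8.08. In each case the gap to the nearest array, in proportion to the range of the group, exceeded Dixon's 95% critical value for 5 samples. Chance gives about 1 such array in 20 groups, and 46 groups were examined, namely knockouts and controls for 9 genes (the 6 transporters, Pcyt1a, Chka and Flvcr1) and 14 marker lists.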

How the results depend on the processing

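The count of 0 called choline transporters was the same in all 22 alternatives (10 with 1 array left out and 12 others). The exact permutation test, 1 of these, called no gene at all, with a smallest adjusted p of 0.305 over all genes. Its 0 is therefore no separate evidence about the members. Slc44a3, the 1 member with an unadjusted limma p under 0.05, was above it in 4 of the 10 fits with 1 array left out and in 1 of the others (0.0590, without the 3 arrays highest in smooth muscle markers). The log2 fold change with any 1 array left out ran from -0.071 to 0.0165 for Slc44a1, -0.10 to 0.0465 for Slc44a2, 0.20 to 0.29 for Slc44a3, 0.04 to 0.20 for Slc44a4, 0.02 to 0.20 for Slc44a5 and -0.41 to -0.06 for Slc5a7. Slc44a2 turned positive with the smooth muscle covariate (0.0169), without the 3 arrays highest in smooth muscle markers (0.0683) and without the 2 highest in B cell markers (0.0273). Slc5a7 was at 0.0367 without the 3 smooth muscle arrays. Slc44a5 and Slc5a7 have no value with only genes of mean log2 intensity of at least 5. The cause of these turns was not tested.

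The count of 6 called genes over the whole table was 2 with median centring, with a further quantile normalisation, without the 3 smooth muscle arrays and without the 2 B cell arrays, 247 with the Paneth covariate, and 2 to 452 with 1 array left out (452 without knockout 2). With the exact permutation test it was 0 genes, 0 of them in the choline list, since the smallest adjusted p that test gave over all genes was 0.305. It had 2764 genes at an unadjusted p under 0.05. The likeness of Slc44a1 to Oxct2b was -0.04 with the mean of all probe sets of a gene, and that of Slc44a2 to Bcl2 was 0.817. That of Slc44a5 to Gpatch3 was 0.82 with a further quantile normalisation. No paired analysis was possible because the groups share no replicate number.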
